A study of Mus musculus with 61 samples.

Results

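Calcineurin is the calcium-activated phosphatase that carries nerve and calcium signals to the nucleus of a muscle fibre. It is built of a catalytic subunit (Ppp3ca or Ppp3cb in muscle), a calcium-binding regulatory subunit (Ppp3r1) and calmodulin. When active it removes phosphate from the NFAT transcription factors (Nfatc1, Nfatc2 and Nfatc3 here), which then enter the nucleus, where in mouse muscle they favour slow-fibre and growth programmes. Rcan1 encodes a protein that binds calcineurin and inhibits it, and the gene is itself a target of NFAT, so its RNA is often read as a sign of calcineurin activity. Lmcd1 encodes a LIM-domain protein that was reported in mouse heart to bind calcineurin and to promote its signalling. These 8 genes, of 55011 in the count table, were taken by symbol as members of this pathway, and all 8 passed the filter on low counts in every fit. They were selected on their CPM by group and on their differences after training and during recovery, so their values in those contrasts, and the differences between such responses, are a description, given with no p-value. Contrasts between genotypes, muscles or antibodies compare the same group levels. The adjusted p-values printed for them are therefore descriptive too, and are not tests on values unseen at the selection.

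The data are bulk RNA sequencing counts of whole muscle from 61 libraries in 22 groups. Wild-type C57BL/6J mice gave quadriceps and tibialis anterior muscle at rest and 1, 2 and 7 days after acute exercise, with 3 mice per time. Foxp3DTR+ mice carry the human diphtheria toxin receptor under Foxp3 (the Foxp3-IRES-GFP.hDTR allele), so that diphtheria toxin (DT) removes Foxp3-expressing regulatory T cells. Foxp3DTR- mice lack it, and both genotypes received DT in every group. In the acute experiment, quadriceps came from DTR+ mice (2 sedentary, 3 at day 1 and 2 at day 7 of recovery) and DTR- mice (3, 3 and 2). In the training experiment, DTR+ and DTR- mice were exercised for 2 weeks or stayed sedentary, with 3 quadriceps per group. In the antibody experiment, trained DTR+ mice on DT received neutralising anti-IFN-γ or IgG for 1 week, with 3 quadriceps per group. Sedentary C57BL/6JN mice aged 24 months received anti-IFN-γ or IgG, with 2 libraries per group, and the labels do not name their muscle. Ages of the other mice were not given in the sources used here, nor was it stated whether each library of the DTR, antibody and aged experiments came from a separate mouse, so p-values measure the spread between these libraries.

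Libraries held 3359683 to 14445336 counts. The 8 muscle-fibre markers (Acta1, Ckm, Myh4, Myh1, Myh2, Tnnt3, Ttn and Des) were present in every group and summed to between 162000 and 209000 CPM (counts scaled to the library total). The sedentary and day 7 DTR+ libraries of the acute experiment stood apart before any result. Mitochondrially encoded genes took 21.4% and 23.5% of counts in sedentary DTR+ libraries and 20.0% and 21.8% at day 7, against 7.89% to 12% and 8.7% to 8.92% in the DTR- libraries of the same times. Sedentary DTR+ libraries also detected 14701 and 14745 genes, against 16508 to 16799 in sedentary DTR- libraries. Scaling by trimmed mean of M-values (TMM) added 0.31 to the log2 ratio of DTR+ over DTR- at rest and 0.29 at day 7, but 0.03 at day 1, so fitted values there lie above those of plain CPM by that amount.

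The promoters of Rcan1 and Lmcd1 are shown because most of the results turn on these genes, and because an internal start of Rcan1 is known in mouse and human to be the one driven by NFAT. Rcan1 lies on chromosome 16 (chr16:92391953-92470867, minus strand, GRCm38) and Lmcd1 on chromosome 6 (chr6:112273758-112330425, plus strand). The lines below give the RefSeq promoters of build GRCm38.p6 for the internal Rcan1 start (chr16:92400029-92400328, minus strand), the upstream Rcan1 start (chr16:92466120-92466419, minus strand) and Lmcd1 (chr6:112273508-112273807, plus strand). Each runs 5′ to 3′ along the gene, with 250 bases before the start and 50 after it, and capitals mark the NFAT core GGAAA or its reverse complement TTTCC.
Rcan1 internal start: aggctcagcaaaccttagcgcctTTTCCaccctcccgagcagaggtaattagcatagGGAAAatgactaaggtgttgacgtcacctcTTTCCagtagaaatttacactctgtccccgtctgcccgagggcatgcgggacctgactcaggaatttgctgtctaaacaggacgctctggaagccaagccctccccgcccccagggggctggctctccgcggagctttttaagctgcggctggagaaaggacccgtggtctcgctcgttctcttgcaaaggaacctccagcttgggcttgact
Rcan1 upstream start: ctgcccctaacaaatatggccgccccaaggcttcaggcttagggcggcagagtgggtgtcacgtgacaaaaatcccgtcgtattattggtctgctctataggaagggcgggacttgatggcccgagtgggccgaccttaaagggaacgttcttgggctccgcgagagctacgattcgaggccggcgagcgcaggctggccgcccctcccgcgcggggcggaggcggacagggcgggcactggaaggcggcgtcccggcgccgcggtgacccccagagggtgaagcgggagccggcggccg
Lmcd1: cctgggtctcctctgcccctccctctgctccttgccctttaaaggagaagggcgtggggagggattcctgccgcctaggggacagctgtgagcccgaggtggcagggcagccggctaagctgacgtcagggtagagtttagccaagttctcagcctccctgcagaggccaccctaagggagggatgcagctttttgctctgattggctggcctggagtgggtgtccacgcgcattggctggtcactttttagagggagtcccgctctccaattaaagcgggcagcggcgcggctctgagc

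The internal Rcan1 promoter held 3 matches to the core, at -227, -193 and -163 from the start, while the upstream Rcan1 promoter and the Lmcd1 promoter held 0. A core this short is common: of 32851 mouse promoters of this length, 61.3% held at least 1 match on either strand, and 9.42% held at least 3. The search of the members covered 9 promoters of 6 of the 8 genes, and none of Ppp3ca or Nfatc1. It left out chromosome 18, where Nfatc1 lies, so nothing is said of the Nfatc1 promoter. That of Ppp3cb held 4 matches, those of Nfatc2 held 3 and 1, those of Nfatc3 held 1 and 0, and that of Ppp3r1 held 0. None of the 9 contained the MEF2 motif, searched as CTA and TAG with any 4 bases between them, a palindrome present in 3.69% of all promoters. These matches describe letters only. The counts are per gene, so RNA from the 2 Rcan1 starts cannot be told apart. Rcan1, Ppp3cb, Nfatc1 and Lmcd1 each overlap a gene on the opposite strand, Ppp3r1 overlaps Wdr92 and Nfatc3 overlaps the end of Esrp2, so reads in these stretches could have been counted to either gene.

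All 8 genes were measured in resting wild-type muscle, where Lmcd1 and Rcan1 had the highest levels per kilobase of transcript, although Rcan1 lay close to Ppp3r1 in tibialis anterior. Per kilobase of transcript, mean levels in sedentary wild-type quadriceps were 90.9 CPM per kb for Lmcd1, 71.9 for Rcan1 and 32.2 for Ppp3r1, whereas Ppp3cb (10.2), Ppp3ca (9.92) and Nfatc1 (9.42) lay close together and Nfatc3 (3.75) and Nfatc2 (1.94) were lowest. In sedentary tibialis anterior the same scale gave 168 for Lmcd1, 31.7 for Rcan1, 26.2 for Ppp3r1, 8.66 for Nfatc1, 7.92 for Ppp3ca, 7.60 for Ppp3cb, 3.17 for Nfatc3 and 1.60 for Nfatc2. The order was not the same in every group: in sedentary DTR+ mice of the acute experiment Rcan1 (21.7) lay below Ppp3cb (32.4) and Ppp3ca (27.9) on this scale.

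The 2 modulators separated the muscles at rest, in opposite directions, although the test without pairing called neither. Rcan1 stood at 134.6, 209.6 and 156.9 CPM in quadriceps, against 67.0, 71.2 and 82.5 CPM in tibialis anterior. Lmcd1 stood at 147.1, 185.7 and 139.1 CPM in quadriceps, against 330.2, 271.0 and 270.1 CPM in tibialis anterior. Neither gene's libraries overlapped between the muscles. A gene was called at an adjusted p under 0.05. Without pairing, edgeR's quasi-likelihood test with Benjamini-Hochberg adjustment over 13819 genes called 0 of the 8 genes, against 1.3% of all genes (Rcan1 log2 fold change 1.17 ± 0.40 SE, adjusted p = 0.203; Lmcd1 -0.89 ± 0.24, adjusted p = 0.057). The muscles carry the same animal numbers, and with the animal as a replicate block both were called, Rcan1 higher in quadriceps (1.16 ± 0.20, adjusted p = 0.00396) and Lmcd1 lower (-0.90 ± 0.22, adjusted p = 0.0422). The pairing rests on the labels alone: deviations of the 12 pairs from their group means correlated only at -0.00910 to 0.0467. In the unpaired fit Lmcd1 alone was also called when the day 1 library of mouse 16 or the day 2 library of mouse 14 (quadriceps), or the day 1 library of mouse 17 or 19 (tibialis anterior), was left out (-0.89 in each case). Of the other genes, quadriceps libraries all lay above those of tibialis anterior for Ppp3ca, Ppp3cb and Ppp3r1 (log2 fold changes 0.32, 0.41 and 0.29), and the 3 NFAT genes overlapped. The share of all genes that separated between these libraries is not given here, so the separation is not read as a trait of the pathway. Markers of other cells separated between the same libraries: the 3 adipocyte markers summed to 135 to 202 CPM in quadriceps, against 43.1 to 71.7 CPM in tibialis anterior, the 6 endothelial markers to 210 to 248 CPM, against 293 to 301 CPM in tibialis anterior, and the 5 smooth muscle and pericyte markers to 309 to 376 CPM, against 443 to 476 CPM in tibialis anterior. The part of these cells in the results was not tested.

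Rcan1 covered a 25.9-fold range over the 61 libraries, between 16.8 and 435.0 CPM, with a median of 95.7 CPM. Its highest group means were 255 CPM in wild-type quadriceps at day 1, 245 in DTR- quadriceps at day 1 and 241 in wild-type quadriceps at day 7. Its lowest were 40.7 in trained DTR+ mice, 38.1 in trained DTR+ mice given IgG, 38.0 in DTR+ mice at day 7 and 32.4 in trained DTR+ mice given anti-IFN-γ. Of the 21 pairs of neighbouring groups in this order, 1 had libraries that did not overlap, sedentary tibialis anterior above aged mice given anti-IFN-γ, and the other 7 genes had 0 to 2 such pairs. The experiments were separate, so levels set across them also carry any difference between experiments.

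Trained mice of both genotypes had lower Rcan1 than sedentary ones. In DTR+ mice it stood at 31.2, 43.9 and 47.0 CPM after 2 weeks of training, against 73.1, 117.5 and 133.3 CPM in sedentary mice. In DTR- mice it stood at 47.7, 52.5 and 45.5 CPM after training, against 135.4, 102.8 and 93.2 CPM in sedentary mice. In both genotypes every trained library lay below every sedentary one. The log2 fold change of trained over sedentary mice was -1.46 ± 0.23 (SE) in DTR+ mice and -1.25 ± 0.23 in DTR- mice. Over the 12 fits that each left out a library, the value ranged from -1.68 to -1.28 in DTR+ mice and from -1.35 to -1.07 in DTR- mice. The values of the genotypes were close: DTR+ minus DTR- was -0.21 ± 0.32, with a 95% interval of -0.85 to 0.42.

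The other members lay closer to their controls after training. Ppp3cb of DTR- mice stood at 41.4, 43.0 and 45.9 CPM after training, against 51.3, 59.9 and 53.8 CPM at rest, which did not overlap (log2 fold change -0.39 ± 0.23), while in DTR+ mice the groups overlapped (-0.08). All 8 fitted log2 fold changes were negative in DTR+ mice, with a median of -0.19 against -0.04 over all genes tested. In DTR- mice 4 of 8 were negative. Some DTR+ values were too small to fix a sign. On plain CPM, DTR+ means in trained and sedentary mice were 159.1 and 158.9 for Lmcd1, and 49.61 and 49.51 for Ppp3cb. Without sedentary DTR+ library 2 the fitted Ppp3cb value was 0.24. Nfatc2 had the next lowest value in DTR+ mice (-0.71 ± 0.34). Markers of endothelium and macrophages stood higher after training without overlap in DTR- mice, and overlapped in DTR+ mice. The 6 endothelial markers (Pecam1, Cdh5, Kdr, Tie1, Vwf and Emcn), all detected, summed to 253 to 367 CPM in trained and 161 to 290 CPM in sedentary DTR+ mice, and to 336 to 367 CPM in trained and 236 to 240 CPM in sedentary DTR- mice. The 7 macrophage markers summed to 309 to 420 CPM in trained and 279 to 311 CPM in sedentary DTR+ mice, and to 258 to 339 CPM in trained and 177 to 193 CPM in sedentary DTR- mice. Other lists separated too. In DTR- mice T and NK cell markers summed to 8.56 to 8.99 CPM in trained and 5.08 to 7.44 CPM in sedentary mice. Smooth muscle and pericyte markers there summed to 457 to 565 and 397 to 444 CPM, and overlapped in DTR+ mice. In DTR+ mice the fibre markers were lower after training (166000 to 170000 CPM, against 183000 to 195000 CPM at rest). The part of these cells in the Rcan1 values was not tested, and in bulk tissue fewer cells of a type and less RNA per cell cannot be told apart.

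**Figure D1:**
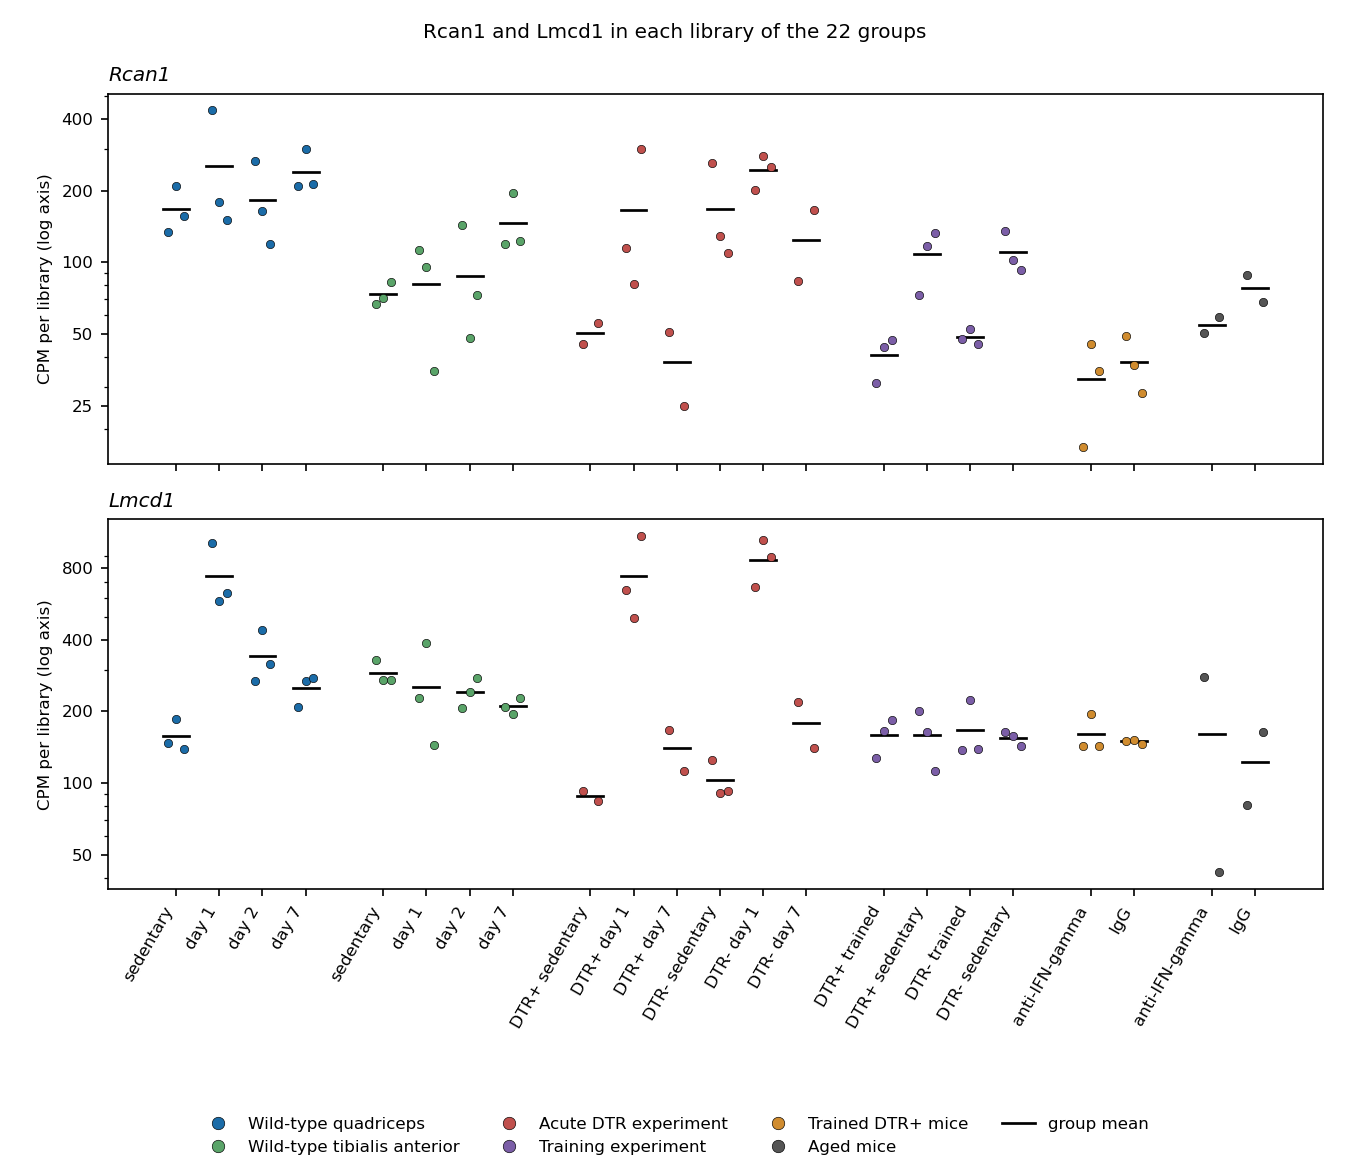
Rcan1 (top) and Lmcd1 (bottom) in CPM on a log axis, with a point for each of the 61 libraries, a black line at each group mean and colours for the experiments. Trained libraries of Rcan1 lie below the sedentary ones of both genotypes, and Lmcd1 peaks at day 1 in all 3 quadriceps series and not in tibialis anterior.

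During recovery from acute exercise, wild-type Rcan1 varied widely between mice at days 1 and 2, and at day 7 it lay above rest in both muscles. In wild-type quadriceps they were 134.6, 209.6 and 156.9 CPM at rest, 435.0, 179.5 and 150.8 at day 1, 266.9, 164.6 and 119.0 at day 2, and 210.4, 299.0 and 212.8 at day 7. The day 1 value rested on the library of mouse 16 at 435.0 CPM: its log2 fold change over rest was 0.62 ± 0.32 with that library and 0.02 without it. Only at day 7 did all recovering libraries lie above the resting ones (0.55 ± 0.32). In tibialis anterior they were 67.0, 71.2 and 82.5 CPM at rest, 112.4, 95.7 and 35.0 at day 1, 143.2, 48.2 and 72.9 at day 2, and 119.6, 196.4 and 122.8 at day 7, again with all libraries above rest at day 7 (1.05 ± 0.37). The day 1 response of quadriceps minus that of tibialis anterior was 0.46 ± 0.56.

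In the acute DTR experiment Rcan1 in DTR+ mice stood at 45.3 and 55.6 CPM at rest, 114.9, 80.8 and 300.2 at day 1, and 51.2 and 24.8 at day 7. In DTR- mice it stood at 261.9, 129.7 and 109.4 CPM at rest, 202.3, 281.2 and 250.6 at day 1, and 83.9 and 165.6 at day 7. All day 1 DTR+ libraries lay above rest, whereas the DTR- groups overlapped at both times. The log2 fold change of day 1 over rest was 1.20 ± 0.47 in DTR+ mice and 0.28 ± 0.40 in DTR- mice, and the difference between them was 0.92 ± 0.61. Without the DTR+ library at 300.2 CPM the DTR+ value was 0.41.

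Between genotypes, Rcan1 was lower in DTR+ than in DTR- mice at rest and at day 7 of the acute experiment, where the libraries did not overlap. The log2 fold change of DTR+ over DTR- was -1.43 ± 0.47 at rest (edgeR adjusted p = 0.0299) and -1.44 ± 0.51 at day 7 (adjusted p = 0.043). Both lay close to the threshold. With any trend of the fold changes with transcript length and GC removed, the values were -1.02 (adjusted p = 0.141) and -1.11 (adjusted p = 0.14), and with DESeq2 they were -1.39 (adjusted p = 0.0892) and -1.39 (adjusted p = 0.129). The call at rest was lost without sedentary DTR+ library 2 or 3 (-1.33 and -1.59) or sedentary DTR- library 1 (-0.92), and at day 7 without DTR+ day 7 library 3 (-1.03), DTR- day 7 library 3 (-0.84) or DTR- day 1 library 3 (-1.45). At day 1 the genotypes overlapped (-0.51 ± 0.40, 95% interval -1.29 to 0.26). The same genotypes in the training experiment gave 0.01 ± 0.23 at rest (95% interval -0.43 to 0.46) and -0.20 ± 0.23 after training (95% interval -0.66 to 0.25, adjusted p = 0.979). The difference between the 2 experiments was not tested.

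Lmcd1, the LIM-domain partner, had the largest log2 fold change after exercise among the members, and it had it in quadriceps. In wild-type quadriceps it stood at 147.1, 185.7 and 139.1 CPM at rest, 1024, 583.5 and 627.4 at day 1, 269.7, 441.9 and 316.9 at day 2, and 208.4, 268.7 and 275.4 at day 7. All recovering libraries lay above all resting ones at each time, and the means were 157 ± 24.9 CPM at rest, 745 ± 243 at day 1, 343 ± 89.0 at day 2 and 251 ± 36.9 at day 7 (SD, n = 3 each). The log2 fold changes over rest were 2.26 ± 0.19, 1.14 ± 0.19 and 0.70 ± 0.19. Without the library of mouse 16 the day 1 value was 1.98.

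In tibialis anterior of the same mice Lmcd1 stood at 330.2, 271.0 and 270.1 CPM at rest, 227.8, 387.0 and 144.0 at day 1, 206.7, 242.0 and 277.3 at day 2, and 208.7, 195.6 and 227.6 at day 7. The groups overlapped at days 1 and 2 and all day 7 libraries lay below rest, with log2 fold changes of -0.16 ± 0.23, -0.23 ± 0.23 and -0.40 ± 0.23. The quadriceps response exceeded that of tibialis anterior by 2.42 ± 0.33 at day 1, and by 2.13 to 2.87 over the 24 fits that each left out a library. At day 2 the difference was 1.38 ± 0.33 and at day 7 1.10 ± 0.33.

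A higher level at day 1 was present in both genotypes of the acute DTR experiment. In DTR+ mice Lmcd1 stood at 92.9 and 84.0 CPM at rest, 647.8, 495.8 and 1094 at day 1, and 167.6 and 112.5 at day 7. In DTR- mice it stood at 125.0, 90.6 and 92.4 CPM at rest, 665.5, 1053 and 890.2 at day 1, and 218.9 and 140.3 at day 7. Day 1 and day 7 libraries all lay above rest in both genotypes, with log2 fold changes at day 1 of 2.56 ± 0.31 in DTR+ mice and 2.82 ± 0.27 in DTR- mice. The genotypes overlapped at every time (DTR+ over DTR- at rest 0.09 ± 0.28 on the TMM scale and -0.21 on plain CPM). Across the training and antibody experiments Lmcd1 kept between 111.9 and 223.4 CPM, with trained and sedentary libraries overlapping in both genotypes.

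The catalytic subunits Ppp3ca and Ppp3cb were higher in DTR+ than in DTR- mice at rest and at day 7 of the acute experiment. At rest Ppp3ca stood at 120.9 and 144.9 CPM in DTR+ mice, against 78.0, 81.3 and 75.3 CPM in DTR- mice, and Ppp3cb at 126.5 and 121.6 CPM in DTR+ mice, against 79.9, 71.6 and 52.6 CPM in DTR- mice. At day 7 Ppp3ca stood at 114.1 and 129.7 CPM in DTR+ mice, against 86.9 and 84.3 CPM in DTR- mice, and Ppp3cb at 142.4 and 125.8 CPM in DTR+ mice, against 57.7 and 76.8 CPM in DTR- mice. The genotypes did not overlap in any of these 4 cases. Ppp3ca was higher by 1.07 ± 0.15 (log2, edgeR adjusted p = 2.03e-05) at rest and 0.80 ± 0.16 (adjusted p = 0.00108) at day 7. Ppp3cb was higher by 1.17 ± 0.20 (adjusted p = 0.000164) at rest and 1.27 ± 0.22 (adjusted p = 0.000259) at day 7. On plain CPM the log2 ratios were 0.77 and 0.51 for Ppp3ca and 0.87 and 1.00 for Ppp3cb, and with the length and GC trend removed the fitted values were 0.89 and 0.64 for Ppp3ca and 1.00 and 1.07 for Ppp3cb, all past the threshold. All 15 fits that left out a library kept these calls. The genes were selected with their group levels in view, so these calls are a description. On plain CPM the regulatory subunit Ppp3r1 lay lower in every DTR+ than in every DTR- library at both times. In the edgeR fit it did not pass (-0.41 ± 0.19, adjusted p = 0.13, at rest and -0.24 ± 0.21, adjusted p = 0.448, at day 7). On TMM-scaled CPM the day 7 means were closer for their spread, at 54.9 ± 10.6 in DTR+ and 61.7 ± 15.1 in DTR- mice (SD). With the length and GC trend removed Ppp3r1 was called at rest (-0.60, adjusted p = 0.0331).

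With Rcan1, that made 3 of the 8 genes called at rest, where 26.6% of 14245 genes were called, and 3 of 8 at day 7, where 25.3% were. At day 1 0 of the 8 genes and 0% of all genes were called (280 genes had an unadjusted p under 0.05, and DESeq2 also called 0). At that time Ppp3ca stood at 69.6, 64.8 and 62.3 CPM in DTR+ mice, against 53.6, 59.1 and 52.6 CPM in DTR- mice, which did not overlap (0.28 ± 0.13, 95% interval 0.02 to 0.54), and Ppp3cb overlapped. All DTR+ libraries at rest and day 7 stood apart by their mitochondrial share and genes detected, so the genotype and that difference cannot be told apart. On CPM of the whole library, markers of other cells separated between the same groups for some lists. The larger mitochondrial share of these DTR+ libraries lowers every other sum on this scale, and the sums were not redone without it. At rest the endothelial markers summed to 86.9 to 91.9 CPM in DTR+ and 101 to 158 CPM in DTR- mice, the 3 nerve and Schwann cell markers to 5.31 to 6.98 CPM in DTR+ (Sox10 at 0) and 7.17 to 12 CPM in DTR- mice, and the fibre markers to 163000 to 175000 CPM in DTR+ and 193000 to 198000 CPM in DTR- mice. At day 7 the endothelial sums were 99.8 to 102 CPM in DTR+ and 152 to 159 CPM in DTR- mice, the nerve sums 2.73 to 3.56 CPM in DTR+ (Sox10 at 0) and 10.5 to 11.4 CPM in DTR- mice, and the fibre sums 171000 to 180000 CPM in DTR+ and 189000 to 190000 CPM in DTR- mice. The macrophage markers overlapped at rest and summed to 289 to 522 CPM in DTR+ and 206 to 246 CPM in DTR- mice at day 7. Sums of the 9 markers of T and NK cells overlapped at rest (7.41 to 8.98 CPM in DTR+ and 7.74 to 9.89 CPM in DTR- mice, with Cd3d, Lck, Nkg7, Cd8a and Cd4 at 0 in DTR+ mice), and at day 7 they summed to 22.1 to 69.4 CPM in DTR+ and 6.24 to 10.5 CPM in DTR- mice, with Cd3d, Cd2, Cd8a and Cd4 at 0 in DTR- mice. Their part in these results was not tested.

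**Figure D2:**
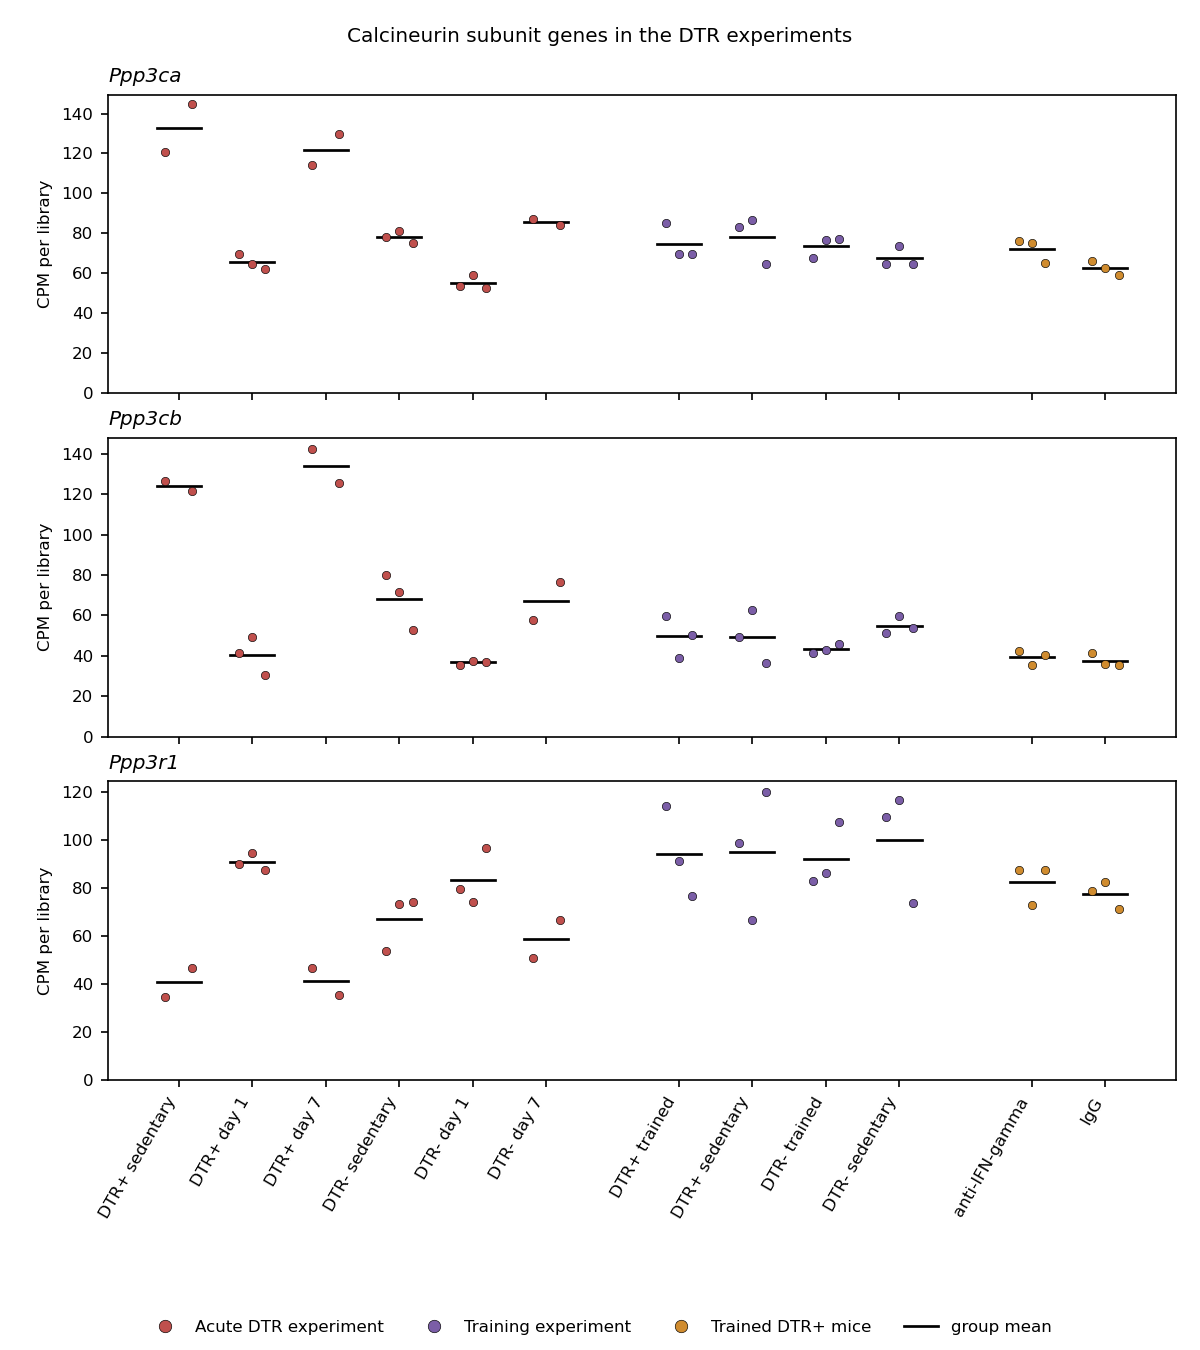
Ppp3ca, Ppp3cb and Ppp3r1 in CPM (linear axes from 0) in the acute, training and antibody experiments, with a point per library and a black line at each group mean. Ppp3ca and Ppp3cb of DTR+ mice lie above DTR- mice at rest and day 7 of the acute experiment. Within that experiment their DTR+ levels are lowest at day 1, while Ppp3r1 of DTR+ mice is lowest at rest and day 7.

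At day 1 of recovery the catalytic subunits stood lower than at rest in both genotypes, and the regulatory subunit stood higher in DTR+ mice. At day 1 over rest, the log2 fold changes in DTR+ mice were -1.55 ± 0.15 for Ppp3ca, -2.17 ± 0.20 for Ppp3cb and 0.62 ± 0.19 for Ppp3r1, and in DTR- mice they were -0.76 ± 0.13, -1.15 ± 0.18 and 0.06 ± 0.17. Ppp3cb stood at 126.5 and 121.6 CPM at rest, 41.5, 49.1 and 30.4 at day 1 and 142.4 and 125.8 at day 7 in DTR+ mice, and at 79.9, 71.6 and 52.6, then 35.7, 37.6 and 36.9, then 57.7 and 76.8 CPM in DTR- mice. Ppp3r1 stood at 34.6 and 46.9 CPM at rest, 90.1, 94.6 and 87.5 at day 1 and 46.6 and 35.6 at day 7 in DTR+ mice, and at 53.9, 73.3 and 74.0, then 79.8, 74.1 and 96.8, then 50.9 and 66.9 CPM in DTR- mice. For both catalytic genes, day 1 libraries lay below rest and day 7 in both genotypes. For Ppp3r1 they lay above rest in both genotypes on plain CPM, but barely in DTR- mice (lowest 74.07 CPM at day 1, highest 74.02 CPM at rest). TMM scaling added -0.25 to the log2 ratio of day 1 over rest in DTR- mice. The day 1 libraries stood apart in other measures too. In DTR+ mice they detected 23450 to 26524 genes, against 14701 to 14745 at rest, and in DTR- mice 21211 to 26596 genes, against 16508 to 16799 at rest. Of their counts, 5.53% to 6.31% (DTR+) and 5.44% to 6.56% (DTR-) were mitochondrially encoded, below every resting library of the same genotype. The endothelial markers summed to 176 to 228 CPM at day 1 in DTR+ mice, against 86.9 to 91.9 CPM at rest, and to 183 to 216 CPM at day 1 in DTR- mice, against 101 to 158 CPM at rest. The smooth muscle and pericyte markers summed to 318 to 360 CPM at day 1 in DTR+ mice, against 210 to 224 CPM at rest, and to 304 to 355 CPM at day 1 in DTR- mice, against 174 to 224 CPM at rest. Other lists went the other way. Fibro-adipogenic progenitor markers summed to 847 to 1080 CPM at day 1 in DTR+ mice, against 1180 to 1300 CPM at rest. In DTR- mice they summed to 953 to 1100 CPM, against 1130 to 1410 CPM at rest. The fibre markers were lower at day 1 in DTR- mice (162000 to 171000 CPM, against 193000 to 198000 CPM) and overlapped in DTR+ mice. All these sums are over the library total, so the larger mitochondrial share at rest lowers the resting sums. The part of these cells in the subunit values was not tested.

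The day 1 difference was deeper in DTR+ than in DTR- mice for both catalytic genes, with DTR+ minus DTR- at -0.80 ± 0.20 for Ppp3ca and -1.02 ± 0.27 for Ppp3cb. At day 7 the difference between the responses of Rcan1 was -0.01 ± 0.67. In wild-type quadriceps the day 1 values over rest were -0.13 ± 0.15 for Ppp3ca and -0.20 ± 0.18 for Ppp3cb, with overlapping libraries. Over all wild-type times, Ppp3ca ranged from 38.2 to 54.2 CPM in quadriceps and 30.0 to 44.8 CPM in tibialis anterior, Ppp3cb from 27.9 to 45.7 and 23.5 to 39.6 CPM, and Ppp3r1 from 82.3 to 108 and 67.4 to 89.2 CPM. Whether the wild-type and DTR- responses differed was not tested.

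In the training experiment the subunits did not separate by genotype. At rest Ppp3ca stood at 83.1, 86.7 and 64.6 CPM in DTR+ mice, against 64.8, 73.7 and 64.5 CPM in DTR- mice, and after training at 85.2, 69.5 and 69.5 CPM in DTR+ mice, against 67.6, 76.5 and 77.2 CPM in DTR- mice. The groups overlapped, with DTR+ over DTR- at 0.27 ± 0.19 at rest (95% interval -0.11 to 0.64, edgeR adjusted p = 0.988), and Ppp3cb gave -0.07 ± 0.23 (95% interval -0.52 to 0.38). Of the 8 genes, 0 were called between genotypes at rest (0.0477% of 12579 genes) or after training (0.89%). Nfatc1 after training stood at 34.4, 31.0 and 31.3 CPM in DTR+ mice, against 48.5, 39.0 and 42.7 CPM in DTR- mice, without overlap but not past the threshold (-0.38 ± 0.20, adjusted p = 0.749). The acute and training experiments were not tested against each other.

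The NFAT genes were measured at low levels in wild-type muscle, and their full ranges over the 61 libraries, set by the acute and aged experiments, were 13.3 to 149.2 CPM for Nfatc1, 0 to 61.9 for Nfatc2 and 4.49 to 113.2 for Nfatc3. Nfatc1, which in mouse muscle responds to slow-type nerve activity, ranged from 35.0 to 50.6 CPM in wild-type quadriceps and 35.6 to 49.6 CPM in tibialis anterior, over all times. Nfatc3 ranged from 10.5 to 25.5 and 12.9 to 27.3 CPM in these muscles, and Nfatc2 from 6.66 to 17.4 and 7.07 to 17.6 CPM. None of the 3 had wild-type recovery libraries that all lay above or below rest.

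In the acute experiment Nfatc1 stood at 13.3 and 17.0 CPM at rest, 24.3, 19.2 and 29.7 at day 1 and 16.7 and 19.0 at day 7 in DTR+ mice, and at 16.0, 15.0 and 17.4, then 26.9, 27.3 and 32.9, then 28.8 and 22.1 CPM in DTR- mice. The recovering DTR- libraries all lay above rest, with log2 fold changes of 0.59 ± 0.21 at day 1 and 0.54 ± 0.23 at day 7. In DTR+ mice the values were 0.16 ± 0.24 and 0.11, with TMM scaling taking 0.54 off the plain day 1 ratio, and the day 1 value turned to -0.47 with the length and GC trend removed. Nfatc2 stood at 1.73 and 2.12 CPM at rest, 10.0, 8.08 and 6.29 at day 1 and 0 and 7.02 at day 7 in DTR+ mice, and at 1.96, 0.942 and 3.46, then 6.08, 5.19 and 9.97, then 5.27 and 2.45 CPM in DTR- mice. On plain CPM the log2 ratio of day 1 over rest for Nfatc2 was 2.08 in DTR+ and 1.74 in DTR- mice. With the length and GC trend removed the fitted DTR+ value was 0.68 ± 0.84. The DTR+ library at 0 counts allows up to 0.334 CPM, 3 counts of its total, for counting error only, and the day 7 values of Nfatc2 turn on it. None of the 3 was called between genotypes. Under other settings Nfatc1 at rest was called with a replicate block and the length and GC trend removed (0.69, adjusted p = 0.0465), Nfatc3 at rest without sedentary DTR+ library 2 (-1.31, adjusted p = 0.0456), and Nfatc2 at day 7 without DTR+ library 3, which left the library at 0. The sign of all 3 at rest was positive with TMM scaling (0.22, 0.18 and 0.05) and negative on plain CPM (-0.09, -0.14 and -0.26).

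The fits across all genes also counted the 8 genes in the training and recovery contrasts, and because the genes were chosen with these contrasts in view nothing is read from the counts. In wild-type quadriceps 1 of 8 was called at day 1 (0.582% of 13062 genes), 1 at day 2 (0.299%), where Lmcd1 was lost without the day 2 library of mouse 14 or sedentary mouse 5 or 7, and 0 at day 7 (0.214%). In tibialis anterior 0 were called at day 1 (0.0552% of 12692 genes), day 2 (0.063%) or day 7 (0.0158%). The difference between the muscles gave 1 at day 1 (0.0434% of 13819 genes), 0 at day 2 (0.00724%) and 0 at day 7 (0.0796%), and Lmcd1 entered at day 2 without the day 1 tibialis anterior library of mouse 17. Without the filter on low counts, or with only the groups compared, Lmcd1 entered at both day 2 and day 7. In the acute experiment 5 of 8 were called in DTR+ mice at day 1 (42.4% of 14245 genes), or 3 without sedentary DTR+ library 2, and 3 in DTR- mice (16.4%), with 0 at day 7 in either (1.01% and 0.00702%). The difference between genotypes gave 2 at day 1 (15.3%), or 1 without sedentary DTR+ library 2 or 3, and 0 at day 7 (0.0772%). With training 1 of 8 was called in DTR+ mice (2.21% of 12579 genes) and 1 in DTR- mice (0.103%), and 0 in the difference between genotypes (0.27%). The DTR- count was 0 when any 1 of the 6 DTR- libraries, or trained DTR+ library 2 or 3, was left out, and with the replicate number as a block.

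**Figure D3:**
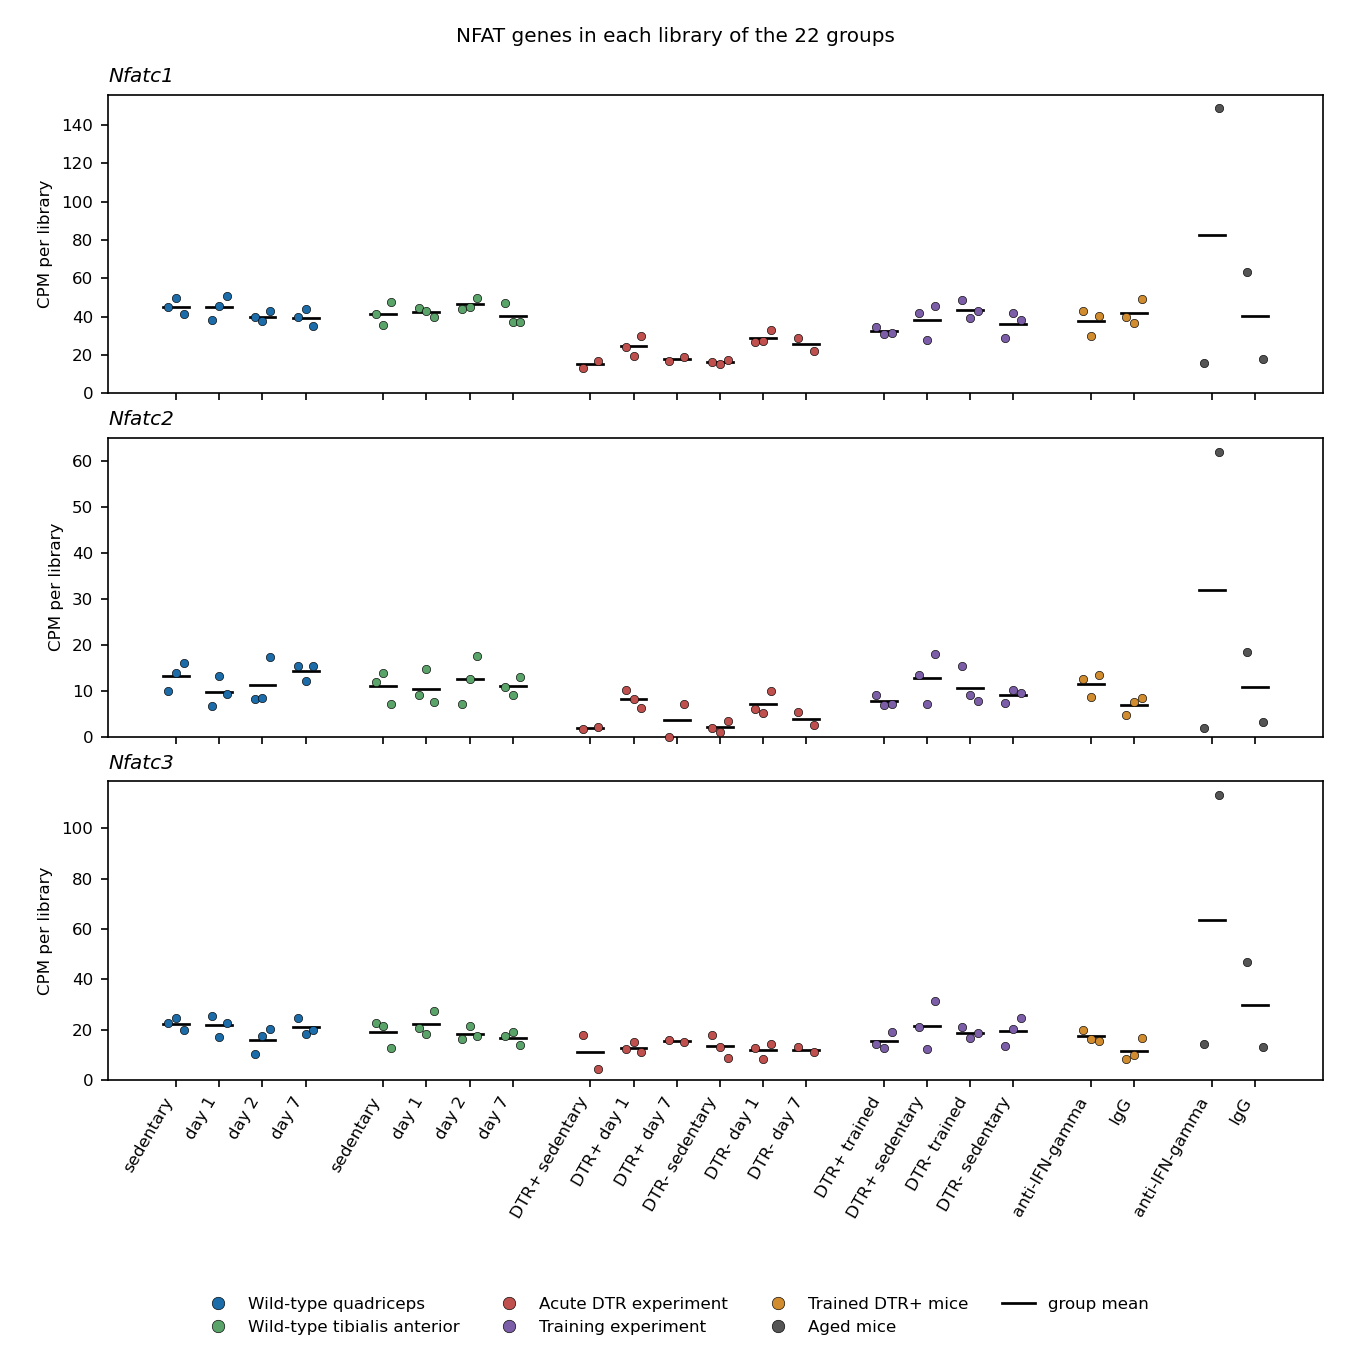
Nfatc1, Nfatc2 and Nfatc3 in CPM (linear axes from 0), with a point for each of the 61 libraries and a black line at each group mean. Levels are low in the acute experiment for Nfatc1 and Nfatc2, and 1 aged library given anti-IFN-γ is the highest for all 3 genes.

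Neutralising IFN-γ in trained DTR+ mice called 0 of the 8 genes, where 1.35% of 11742 genes were called. Rcan1 stood at 16.8, 45.4 and 35.1 CPM with anti-IFN-γ, against 48.9, 37.0 and 28.4 CPM with IgG, an overlap at -0.24 ± 0.28 (95% interval -0.78 to 0.31, edgeR adjusted p = 0.862). Nfatc2 stood at 12.6, 8.61 and 13.4 CPM with anti-IFN-γ, against 4.63, 7.45 and 8.30 CPM with IgG, without overlap, at 0.77 ± 0.28 (95% interval 0.22 to 1.31, adjusted p = 0.309). Nfatc3 stood at 20.0, 16.4 and 15.6 CPM with anti-IFN-γ, against 8.15, 9.86 and 16.6 CPM with IgG, at 0.59 ± 0.25 (adjusted p = 0.412), and was called only without IgG library 3 (0.94, adjusted p = 0.0366). In aged mice 0 of 8 genes and 0% of 12531 genes were called (64 genes had an unadjusted p under 0.05, and DESeq2 also called 0). Nfatc1 and Lmcd1 differed widely within both aged groups: Nfatc1 stood at 16.0 and 149.2 CPM with anti-IFN-γ, against 63.3 and 17.6 CPM with IgG, and Lmcd1 at 279.4 and 42.1 CPM with anti-IFN-γ, against 80.7 and 164.3 CPM with IgG. The library of each group with the higher Nfatc1 had 3.25% and 4.81% of counts in mitochondrially encoded genes, against 14.0% and 8.17% in the other. Rcan1 at 50.5 and 59.2 CPM with anti-IFN-γ, against 88.4 and 67.9 CPM with IgG, lay lower with anti-IFN-γ without overlap, at -0.36 with a 95% interval of -2.16 to 1.44.

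**Figure D4:**
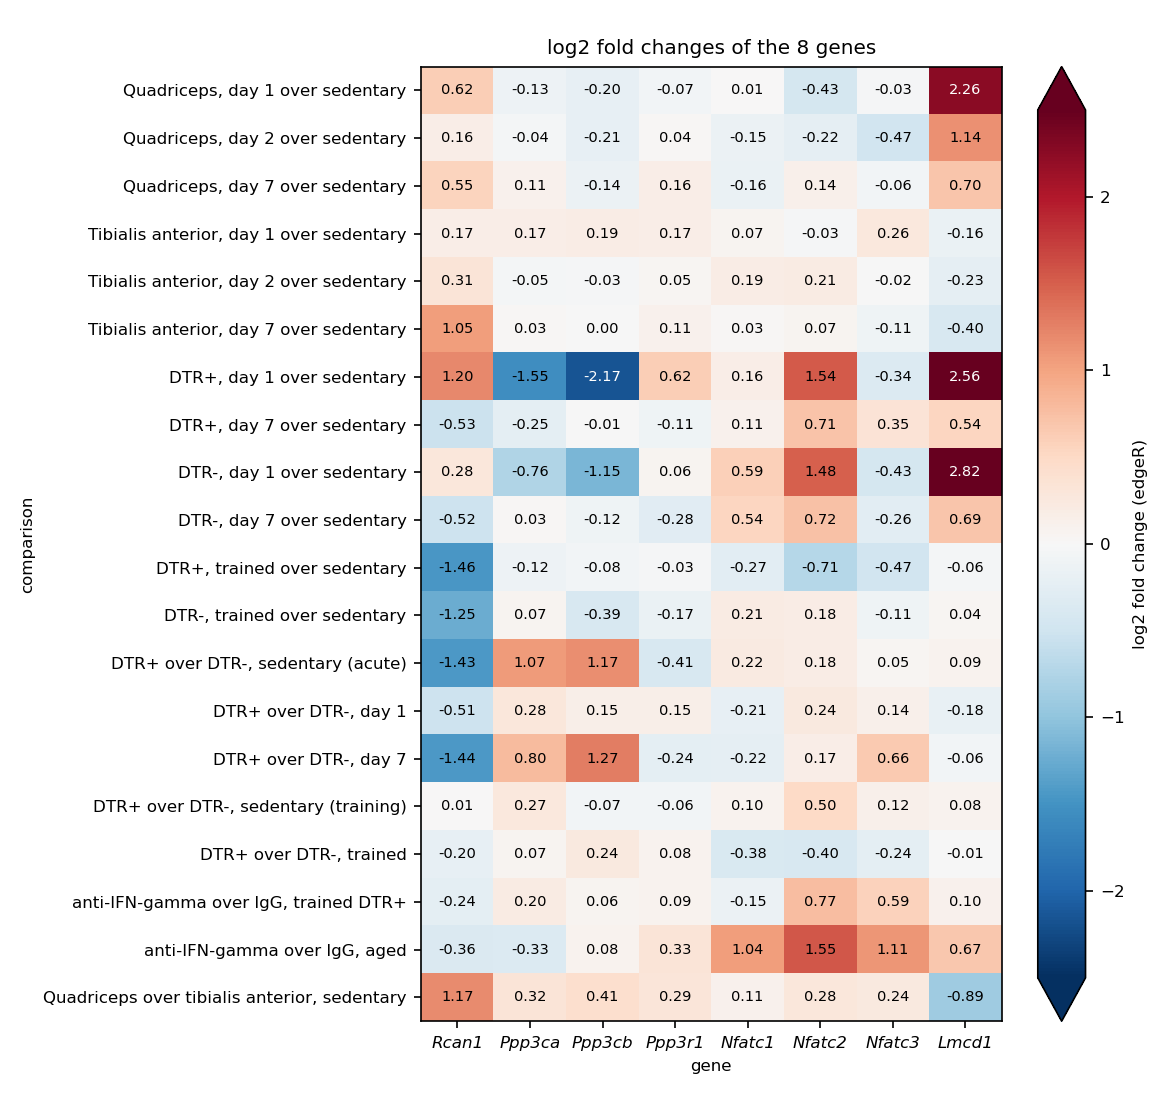
Fitted log2 fold changes (edgeR, first group over second) of the 8 genes in 20 comparisons, with colour from blue (negative) to red (positive) on a scale cut at 2.5 either way. The deepest reds are Lmcd1 at day 1 in quadriceps. The deepest blues are the catalytic subunits at day 1 in the acute experiment, and Rcan1 after training and between genotypes. Reds about as far from 0 as these Rcan1 blues include Ppp3cb between genotypes at rest (1.17) and day 7 (1.27) of the acute experiment. In aged mice, with 2 libraries per group, values reach 1.55.

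Beyond the 8 genes, 51 others of the pathway were listed by role, and 46 to 48 of them were tested in each fit, 47 in most. These lists were written with earlier results of the data known, so the values of their genes are a description, given with no p-value. In wild-type recovery 0 of the 47 were called at any time in either muscle, where 0.0158% to 0.582% of all genes were called. Mb, the oxygen-storing myoglobin gene listed among slow-fibre targets of calcineurin, was higher after training and was called in both genotypes. It stood at 1889 ± 424 CPM in trained DTR+ mice, against 598 ± 75.6 CPM in sedentary ones (1.62 ± 0.18). The DTR- value was 1.21 ± 0.18. With training, 2.21% of 12579 genes were called in DTR+ mice and 0.103% in DTR- mice. In DTR+ mice 1 other gene passed, Calm3, a calmodulin gene, at 45.4 CPM after training, against 91.5 CPM at rest (-1.02 ± 0.25). No other slow-fibre gene on the list passed with training in either genotype.

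Between anti-IFN-γ and IgG in trained DTR+ mice, 2 of the 46 tested genes were called, where 1.35% of 11742 genes were. Both were slow-fibre genes and lower with anti-IFN-γ. Myh7, the slow myosin heavy chain, stood at 130 ± 58.3 CPM with anti-IFN-γ, against 294 ± 24.8 CPM with IgG (-1.18 ± 0.24). Tnni1, the slow troponin I, stood at 47.2 CPM with anti-IFN-γ, against 95.9 CPM with IgG (-1.02 ± 0.18). Of the 8 slow-fibre genes 0 had a positive value, with a median of -0.62. Between resting muscles the same genes were far apart: Myh7 averaged 229 CPM in quadriceps and 5.54 CPM in tibialis anterior (5.34 ± 0.38). In quadriceps 7 of the 8 were higher, and Mb was lower, at 1081 CPM in quadriceps and 1793 CPM in tibialis anterior (-0.74).

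Between genotypes of the acute experiment, 13 of the 47 genes were higher and 7 lower in DTR+ mice at rest, and 10 were higher and 6 lower at day 7, where 26.6% and 25.3% of all genes were called in either direction. Calm2, a calmodulin gene, was higher at rest, averaging 756 CPM in DTR+ mice, against 315 CPM in DTR- mice (1.57 ± 0.20). Gsk3b, a kinase that returns phosphate to NFAT and so opposes calcineurin, was lower, at 33.2 CPM in DTR+ mice, against 172 CPM in DTR- mice (-2.07 ± 0.17). Cacna1s, the voltage sensor of the muscle calcium release unit, was lower too, at 38.4 CPM in DTR+ mice, against 219 CPM in DTR- mice (-2.20 ± 0.17). At day 7 the values were 1.75 for Calm2, -1.46 for Gsk3b and -2.21 for Cacna1s. At day 1, and in the training experiment at rest and after training, 0 of the 47 were called between genotypes, and 0 were called in aged mice. At day 1 over rest, 10 of the 47 were higher and 17 lower in DTR+ mice, with Calm2 at -2.95 and Cacna1s at 3.03, and 5 were higher and 8 lower in DTR- mice, with Calm2 at -1.11, where 42.4% (DTR+) and 16.4% (DTR-) of all genes were called in either direction.

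Genes with the pattern most like that of Rcan1 and Lmcd1 were sought over the 22 group means of log2(CPM + 1), each experiment centred on its own mean, among 8608 genes. For Rcan1 these were Dusp8, which encodes a phosphatase of MAP kinases (Pearson r = 0.89), Glipr2 (0.88), Fam131a (0.88) and the nucleolar RNA methyltransferase gene Nop2 (0.87). Over the 14 groups left without the acute and aged experiments, their values were 0.64, 0.72, 0.69 and 0.75, and Pkdcc then ranked first (0.89). Dusp8 had means of 29.3 CPM in trained and 67.7 CPM in sedentary DTR+ mice, and 36.9 CPM in trained and 74.8 CPM in sedentary DTR- mice. For Lmcd1 they were Usp28, a deubiquitinase gene, the actin regulator Enah, the small heat shock protein gene Hspb1 (0.96 each) and Tnfrsf12a, the TWEAK receptor gene (0.95), and they kept 0.88 to 0.92 without those experiments. Hspb1 averaged 681 ± 314 CPM at day 1 and 126 ± 3.40 CPM at rest in wild-type quadriceps, and Tnfrsf12a averaged 109 CPM at day 1 and 31.4 CPM at rest. These groups share libraries and experiments, so the correlations are a description.

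Among the members themselves, the relations between subunits depended on the acute and aged experiments. Over 22 groups r was 0.89 between Ppp3ca and Ppp3cb, -0.91 between Ppp3cb and Ppp3r1, and -0.88 between Ppp3ca and Ppp3r1. Over the 14 groups without the acute and aged experiments the same pairs gave 0.26, 0.53 and 0.57, with no opposite course of the catalytic and regulatory genes. Rcan1 and Lmcd1 gave 0.50 over 22 groups and 0.11 over 14.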

How the data were processed

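RNA was measured in 61 whole-muscle libraries. The values were the deposited gene counts, whole numbers per gene, in a table of 55011 genes. STAR 2.7.3a, featureCounts and the mm10 build are the tools and build named in the submitters' processing notes. The annotation, strand setting and multi-mapping rule were not given in the sources used here. Libraries started from 2 ng of frozen-muscle RNA, per the labels' protocols.

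In R 4.3.3, edgeR 4.0.16 was run separately on every experiment (quasi-likelihood F tests between group means, TMM factors), and the 24 wild-type libraries were fitted together for contrasts between muscles. Genes passed filterByExpr (at least 10 counts, total at least 15). Adjusted p is Benjamini-Hochberg over all genes of a comparison, with a threshold of 0.05. The SE of a log2 fold change is its size over the square root of F, and 95% intervals are the fold change with its normal interval. CPM are counts over the library total. Fits were tested on simulated data. Libraries held 3359683 to 14445336 counts, so a gene at 0 could reach 0.208 to 0.893 CPM (3 counts), and floors cover counting error only.

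Groups came from the labels. The 8 genes and the pathway and marker lists were chosen with earlier results of these data known. All 8 genes are named whatever their values, and of the other pathway genes up to 4 called ones by smallest p in each comparison, with up to 3 others of a role. Likeness took the 4 highest Pearson correlations among genes with a mean of at least 5 CPM. Coordinates came from GENCODE vM21 (GRCm38) and promoters from RefSeq.

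Quadriceps and tibialis anterior libraries carry the same animal numbers in the labels and were paired on that ground, although deviations of the 12 pairs from their group means correlated only at -0.00910 to 0.0467. In the other experiments shared replicate numbers were not taken as pairs. Alternatives were RLE factors, DESeq2 1.42.0, no filter on low counts, removal of a trend on transcript length and GC content, a replicate block, only the groups compared, and leaving out each library. Some results on single genes are not reported here.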

Additional observations from a re-analysis of the deposited data

Results flagged for a closer look

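In the fits across all genes, 3 of the members' differences between 2 responses passed the threshold. They are built from responses that were in view when the genes were chosen, so they are a description and nothing is read from their count. Of all genes, 0.0434% of 13819 passed in the day 1 difference between muscles. In the day 1 difference between genotypes 15.3% of 14245 passed. The day 1 response of Lmcd1 was larger in quadriceps than in tibialis anterior by 2.42 (log2). The day 1 difference from rest of Ppp3ca was deeper in DTR+ than in DTR- mice, at -0.80 for DTR+ minus DTR-, and that of Ppp3cb was too, at -1.02. The last 2 rest on the sedentary DTR+ libraries, which stood apart by their share of mitochondrially encoded counts, and the part of that share was not tested. No group held more than 3 libraries, so a single library far from the rest of its group was not tested for.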

How the results depend on the processing

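Of the members' counts, those with RLE factors, DESeq2 or the length and GC trend removed stayed within 1.5 times of the reported ones in all 26 comparisons. Without the filter on low counts, 2 members (reported: 1) were called in quadriceps at day 1, 2 (0) at day 7, 1 (0) in tibialis anterior at day 7, 1 (0) in DTR- mice at day 7, 2 (0) between resting muscles, and 1 (0) in the difference between muscles at days 2 and 7. With only the groups compared the counts were 1 (0) in quadriceps at day 7, 5 (3) in DTR- mice at day 1, 2 (0) between resting muscles, and 1 (0) in the difference between muscles at days 2 and 7. With a replicate block the counts were 0 (1) for training in DTR- mice and 2 (0) between resting muscles, and with the length and GC trend also removed 2 (0) between resting muscles and 1 (2) for the day 1 difference between genotypes. In the other comparisons the blocked count stayed within 1.5 times. Leaving out 1 library gave 0 to 1 in quadriceps at day 2, 3 to 6 in DTR+ mice at day 1, 0 to 1 for training in DTR- mice, 0 to 1 with anti-IFN-γ, 0 to 1 between resting muscles, 0 to 1 in the difference between muscles at day 2, and 1 to 2 in the day 1 difference between genotypes. Of the 208 fold changes of the members, 89 changed sign under at least 1 alternative (88 by leaving out a library, 22 under other settings), as did Nfatc1 at day 1 in DTR+ mice. In comparisons outside training and recovery, a sign changed past the threshold in 2 cases: Nfatc3 between genotypes at rest was -1.31 without sedentary DTR+ library 2 (0.71 without library 3), and Nfatc2 at day 7 was -8.20 without DTR+ library 3, which leaves the library at 0 alone (1.18 without library 2). Counts over all genes moved by more than 1.5 times in 18 of 26 comparisons with DESeq2 and 20 without the filter, as in quadriceps at day 1 (76, 181 with DESeq2, 197 without the filter) or training in DTR+ mice (278, 547 and 511). A pairing of the aged libraries with numbers crossed was added after seeing the data (same-numbered pairs correlated at -0.644) and called 0 members and 0 genes. The 3 counts behind a 0 and 2 or 3 libraries per group limit what could be seen for Nfatc2 and Nfatc3.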
